A study of Mus musculus with 16 samples.

Results

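The genes described here carry out mitochondrial fatty acid oxidation and ketone body metabolism: acyl-CoA synthetases, the carnitine shuttle, the dehydrogenases and later enzymes of β-oxidation, the proteins that pass its electrons on, and enzymes of ketone body turnover. They were chosen by gene symbol, by no threshold on a measured value but with earlier results of these data known, and number 35 of the 53465 genes in the deposited table. All 35 were present and passed the filter on low counts. RNA-seq of whole liver was done on 16 C57BL/6 mice aged 29 to 30 weeks, 4 in each group. Mice received a control diet (CD) or a high-fat diet (HFD) for 16 weeks, and then vehicle or perfluorooctanoate (PFOA), a synthetic fluorinated analogue of a fatty acid, for 8 weeks more. The 4 groups are therefore CD with vehicle, CD with PFOA, HFD with vehicle and HFD with PFOA. All mice are of 1 strain and no genetic alteration is named in the labels. Neither the dose of PFOA nor its route is given in the sources used here, nor is the sex of the mice.

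A fatty acid is first joined to coenzyme A by a synthetase. Carnitine palmitoyltransferases and a translocase carry the long acyl chain into the mitochondrion, where repeated cycles of dehydrogenation, hydration, a further oxidation and thiolysis shorten it to acetyl-CoA. In the liver much of this acetyl-CoA becomes ketone bodies, which other tissues burn. Many of these genes are textbook targets of the nuclear receptor PPARα, and perfluorinated fatty acids are known activators of that receptor in rodent liver.

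The libraries held 14456524 to 25778125 counts, and levels are given as CPM, a gene's count for every 1e+06 counts of its library after TMM scaling. Hepatocyte markers were high in every library, and their summed level was lower with PFOA: 95449 to 134925 CPM in CD with vehicle, 58328 to 75499 in CD with PFOA, 79759.5 to 93860.4 in HFD with vehicle and 52765 to 63361 in HFD with PFOA. Of the 8 markers, 7 fell with PFOA in CD and 8 in HFD, and the part of this in the results below was not tested. In whole tissue, fewer cells of a type and less RNA per cell cannot be told apart. CD vehicle libraries 1 and 4 stood apart: library 4 had the highest sum of B and plasma cell markers (45.9 CPM, against at most 6.81 in the other groups), and library 1 lay far from its group for Acsl5, Cpt1a and Etfb. Counts of genes that passed in comparisons with CD vehicle livers, and single calls that changed, are therefore also given without both.

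PFOA raised most of the pathway on both diets. In CD, 24 of the 35 genes rose and 2 fell (edgeR quasi-likelihood test, Benjamini-Hochberg adjusted p under 0.05 over 14998 genes), with a median log2 fold change of 0.76. Of all genes tested in CD, 24.4% were called, 11.8% higher and 12.6% lower, around a median log2 fold change close to 0. In HFD, 25 rose and 1 fell, with a median of 0.79, where 16.5% of all genes were called, 8.6% higher and 7.91% lower, around a median of 0.01. The share of all counts that fell in the 35 genes went from 0.697% ± 0.0309 (SD, n = 4) to 1.40% ± 0.0778 in CD. In HFD it went from 0.746% ± 0.0287 to 1.46% ± 0.0498, and no PFOA library overlapped with a vehicle library on either diet. Single genes whose PFOA and vehicle livers did not overlap numbered 23 higher and 2 lower in CD, against 11.1% and 11.6% of all genes, and 25 higher and 1 lower in HFD, against 12.9% and 12.5%.

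The rise was uneven over the steps. All 6 carnitine shuttle genes, all 4 genes of hydration to thiolysis and both genes for unsaturated chains rose on both diets, with step medians of 1.57, 0.86 and 1.27 log2 in CD and 1.61, 0.88 and 1.37 in HFD. Of the 8 acyl-CoA dehydrogenases, 6 rose and 1 fell on each diet. Of the 8 synthetases, 2 rose in CD and 4 in HFD. The 3 electron transfer genes had 2 rises on each diet, and the 4 ketone body genes had 2 rises and 1 fall in CD and 1 rise in HFD.

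**Figure D1:**
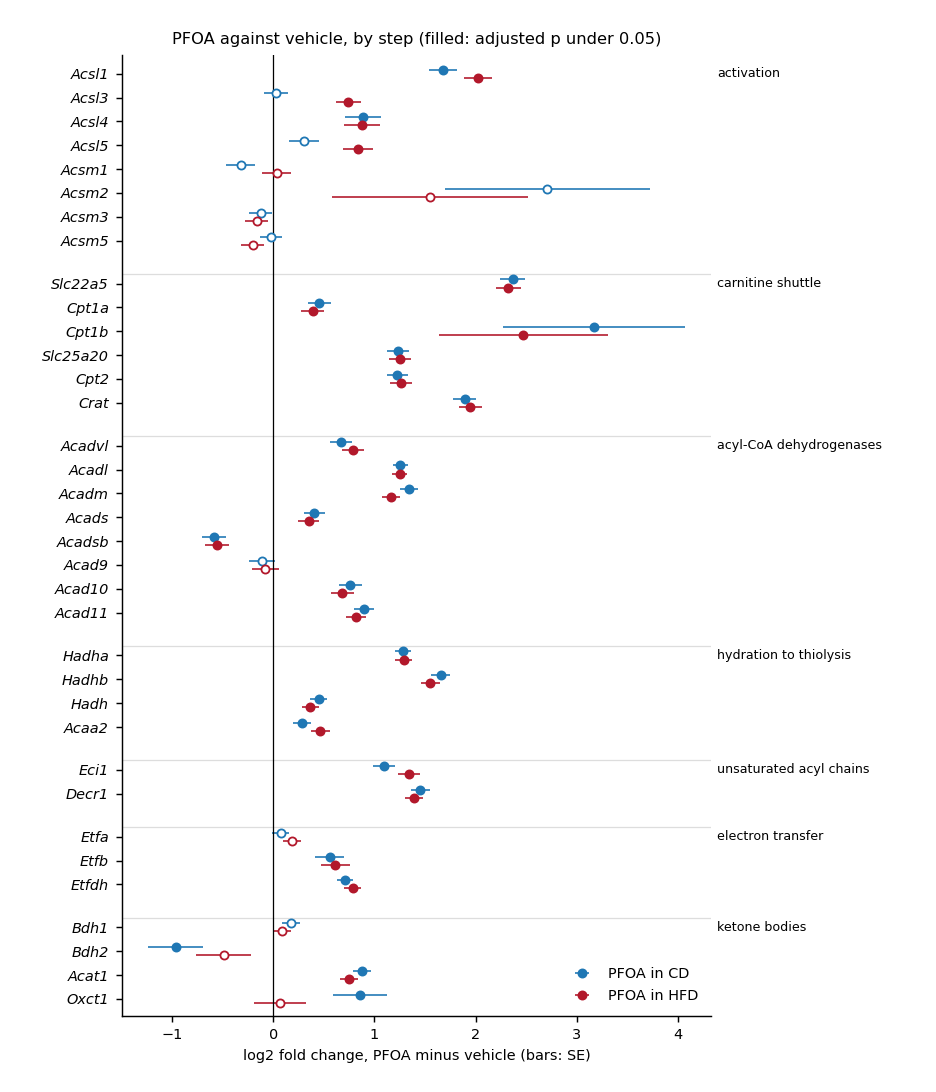
Log2 fold change of each gene with PFOA against vehicle (horizontal axis, log2; bars, SE) on the control diet (blue) and the high-fat diet (red), ordered by step; filled points passed adjusted p under 0.05. The 6 carnitine shuttle genes lie to the right of 0 on both diets, from 0.39 for Cpt1a to 3.17 for Cpt1b, whereas Acadsb lies to the left on both.

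Among the synthetases, Acsl1, the main long-chain acyl-CoA synthetase of liver (chromosome 8, 46471037 to 46536051, plus strand, GRCm38), rose on both diets and was the most abundant of the 8 per kilobase of exon in both PFOA groups. In CD its level was 852, 1231, 1334 and 905 CPM in the 4 vehicle livers and 3674, 3409, 3294 and 3459 in the 4 PFOA livers. In HFD it was 900.2, 809, 851 and 712 with vehicle and 4048, 3196, 2960.0 and 3089 with PFOA. Every PFOA liver lay above every vehicle liver, and HFD PFOA liver 1 was the highest of all. The log2 fold change was 1.68 ± 0.14 (SE; edgeR adjusted p = 2.66e-08) in CD and 2.02 ± 0.14 (adjusted p = 2.84e-09) in HFD. Acsl4, which prefers arachidonic acid, rose from 73.4 ± 27.6 to 136 ± 7.76 CPM (SD, n = 4) in CD and from 72.3 ± 4.61 to 133 ± 16.8 in HFD, by 0.89 ± 0.18 and 0.88 ± 0.18 log2 (edgeR adjusted p = 0.00101 and 0.00166).

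Acsl5, another long-chain synthetase of liver, passed the test with PFOA in HFD and not in CD. In CD, its level was 442, 784, 843 and 833 CPM with vehicle and 788, 894, 965 and 941 with PFOA, and the low value of vehicle liver 1 set the width of that group. In HFD the vehicle livers held 528, 431, 429.7 and 476 CPM and the PFOA livers 873, 839, 793 and 835, without overlap. The log2 fold change with PFOA was 0.31 ± 0.15 in CD (edgeR adjusted p = 0.143) and 0.84 ± 0.15 in HFD (adjusted p = 0.000402). Acsl3, a synthetase of lipid droplets and the endoplasmic reticulum, had a like pattern of levels, with 55.1, 64.2, 69.3 and 87.5 CPM in CD vehicle livers, 63.7, 82.2, 64.7 and 70.6 in CD PFOA livers, 47.4, 50.9, 43.4 and 44.6 in HFD vehicle livers and 70.6, 89.0, 75.7 and 76.3 in HFD PFOA livers. Only the HFD vehicle livers stood apart for Acsl3, below all 12 others, and its log2 fold change with PFOA was 0.03 ± 0.12 in CD (edgeR adjusted p = 0.907) and 0.74 ± 0.12 in HFD (adjusted p = 0.00023).

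The medium-chain synthetases of the mitochondrial matrix did not pass the test with PFOA on either diet. Acsm1 averaged 240.5 ± 46.7 CPM in CD vehicle livers and 192 ± 6.73 in CD PFOA livers, and it fell only in the fits without CD vehicle liver 4 (-0.45 ± 0.13 log2, edgeR adjusted p = 0.0123) or without livers 1 and 4 (-0.40 ± 0.14, 0.0393). Acsm3 and Acsm5 had log2 fold changes of -0.13 ± 0.11 and -0.02 ± 0.11 in CD and -0.16 ± 0.11 and -0.20 ± 0.11 in HFD. Acsm2 was scarce, at most 5.81 CPM in any library. In CD its levels were 0.625, 0.183, 0.0937 and 0.47 CPM with vehicle and 5.81, 1.49, 0.0422 and 1.84 with PFOA, which overlapped (log2 fold change 2.71 ± 1.01, edgeR adjusted p = 0.058). Acsm2 passed without CD PFOA liver 3, the lowest of them (3.12 ± 0.88, adjusted p = 0.0161), without a filter on low counts (0.00607) and with a filter of 1 CPM in 4 libraries (0.0498).

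The carnitine shuttle held the steepest rises. Slc22a5 encodes OCTN2, which brings carnitine into the cell (chromosome 11, 53864542 to 53891660, minus strand). Its level was 11.97, 11.1, 11.8 and 11.2 CPM in CD vehicle livers and 76.8, 56.5, 50.6 and 54.4 in CD PFOA livers. On the high-fat diet the levels were 14.3, 11.5, 12.1 and 12.4 with vehicle and 66.1, 63.0, 70.3 and 53.9 with PFOA. The vehicle livers of both diets lay within a few CPM of each other, and every PFOA liver was far above them. The change was 2.37 ± 0.13 log2 in CD (edgeR adjusted p = 8.07e-11) and 2.33 ± 0.13 in HFD (adjusted p = 1.13e-10). Slc22a5 shares 26.2% of its 50-base exon sequences with other genes, nearly all with Slc22a21, whose own level was at most 0.778 CPM in any library.

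Cpt1a, the liver carnitine palmitoyltransferase that controls the entry of long chains, changed little by comparison. It was at 515, 325, 349.9 and 351 CPM in CD vehicle livers and 556, 509.5, 513 and 532 in CD PFOA livers. HFD livers held 435, 419.9, 421 and 396 with vehicle and 507, 557, 563 and 563 with PFOA. CD vehicle liver 1 reached the PFOA range, and in HFD the groups did not overlap. The rise was 0.45 ± 0.11 log2 (edgeR adjusted p = 0.0055) in CD and 0.39 ± 0.11 (adjusted p = 0.0211) in HFD, where the call was lost with scaling by library totals (0.0557), without HFD vehicle liver 2 or 4 or without HFD PFOA liver 2, 3 or 4, at adjusted p of up to 0.0665.

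Cpt1b, the muscle form of the same enzyme, was scarce in liver and rose in proportion far more. Its reads summed to 12 over the 4 CD vehicle livers and 122 over the CD PFOA livers, and to 24 and 165 in HFD. Per library that is 0, 0, 0.468 and 0.0854 CPM against 1.99, 0.994, 0.843 and 1.23 in CD, and 0.0772, 0.765, 0.2 and 0.153 against 0.974, 1.47, 1.36 and 2.78 in HFD, without overlap on either diet. The log2 fold change was 3.17 ± 0.90 (edgeR adjusted p = 0.0131) in CD and 2.47 ± 0.84 (adjusted p = 0.0493) in HFD. The HFD call was lost with scaling by library totals (adjusted p = 0.0556) and when any HFD liver other than HFD vehicle liver 2 was left out (adjusted p up to 0.164), and the CD call without CD vehicle livers 1 and 4 (2.41 ± 1.01, adjusted p = 0.0963). The 8 skeletal muscle markers summed to at most 4.44 CPM in any library and to at most 0.789 in CD PFOA livers, with Ckm, Myh1, Myh4 and Tnnt3 at 0 there. The 7 adipocyte markers, of another tissue that expresses Cpt1b, summed to 8.15 to 38.4 CPM in CD vehicle livers and 56.0 to 105 in CD PFOA livers, and to 37.6 to 106 and 109 to 239.6 in HFD, without overlap on either diet. Lep was at 0 in the libraries of every group, and of the 2 markers that passed the filter on low counts, Cidea rose (1.90 ± 0.38 and 1.47 ± 0.37 log2) and Cfd did not pass (-1.62 ± 0.83 and -2.01 ± 0.83). The part of these markers in the Cpt1b result was not tested. In the annotation, 81.4% of the exonic bases of Cpt1b (chromosome 15, 89416405 to 89425863, minus strand) also belong to Gm44502, a gene not analysed here, so reads from the shared bases cannot be told apart and the Cpt1b counts are uncertain. The neighbouring gene Chkb, a choline kinase chosen after its values were seen, rose from 32.9 to 86.3 CPM in CD (1.39 ± 0.09 log2), and its part in the Cpt1b counts was not tested.

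Inside the shuttle, Slc25a20, the carnitine-acylcarnitine translocase of the inner membrane, rose from 68.8 to 102 CPM to 186 to 216 in CD and from 77.4 to 87.1 to 166 to 217 in HFD. Its log2 fold changes were 1.24 ± 0.11 and 1.25 ± 0.11 (edgeR adjusted p = 7.59e-08 and 8.47e-08). Cpt2, which hands the acyl chain back to coenzyme A in the matrix, gave nearly the same values, 1.23 ± 0.11 and 1.26 ± 0.11 log2 (adjusted p = 5.96e-08 and 5.28e-08). Crat, the carnitine acetyltransferase that exchanges short acyl groups, was at 105, 79.5, 124 and 114 CPM in CD vehicle livers and 405, 348, 383 and 438 in CD PFOA livers. In HFD, Crat was at 117, 106, 104 and 110.1 with vehicle and 410.4, 438, 415 and 422 with PFOA. The HFD livers were tightly grouped and no PFOA liver overlapped with vehicle, and the rise was 1.90 ± 0.11 log2 in CD and 1.95 ± 0.11 in HFD (edgeR adjusted p = 3.69e-10 and 2.89e-10).

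**Figure D2:**
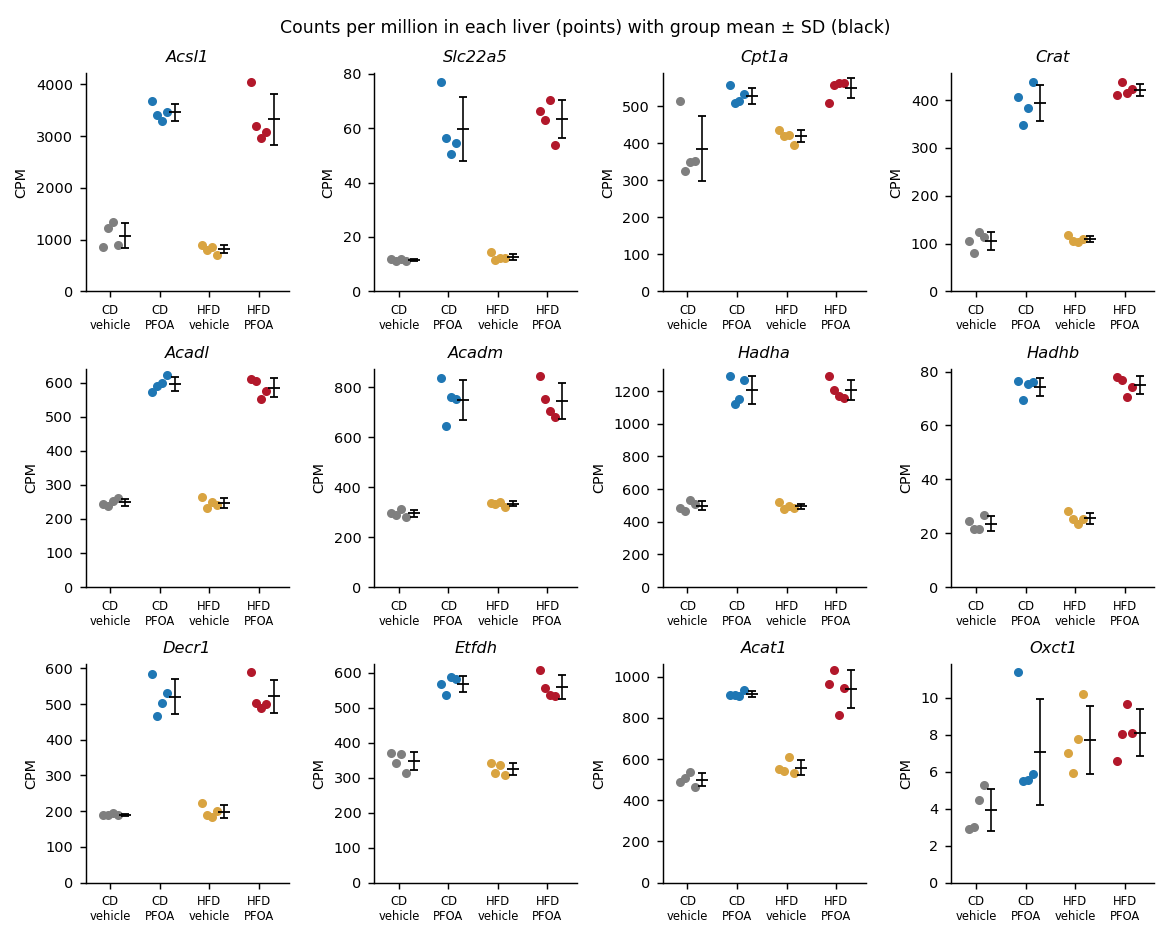
Level of 12 of the 35 genes in each liver (vertical axis, CPM from 0; points, 4 livers per group; black bars, mean ± SD) in the 4 groups. For 10 of the 12 genes all PFOA livers lie above all vehicle livers of the same diet; the exceptions are Cpt1a, where CD vehicle liver 1 reaches 515 CPM, and Oxct1, whose HFD groups overlap.

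The acyl-CoA dehydrogenases, which open each cycle and differ by chain length, rose most for long and medium chains. Acadm, the medium-chain enzyme (chromosome 3, 153922357 to 153944632, minus strand), was at 298, 289, 314 and 279 CPM in CD vehicle livers and 837, 644, 759 and 752 in CD PFOA livers. In HFD it was at 337, 333, 341 and 319 with vehicle and 845, 751, 704 and 679.9 with PFOA. Vehicle livers were uniform and the PFOA livers all lay far above them, with a rise of 1.34 ± 0.09 log2 in CD and 1.16 ± 0.09 in HFD (edgeR adjusted p = 2.39e-09 and 2.04e-08). Acadl, for long chains, rose by 1.26 ± 0.08 and 1.25 ± 0.08 log2, from 238 to 262 to 573 to 621 CPM in CD and from 231 to 263 to 553 to 611 in HFD (adjusted p = 4.04e-10 and 5.04e-10). The smaller rises belonged to the ends of the chain-length range. Acadvl, for very long chains, rose by 0.67 ± 0.11 log2 in CD and 0.79 ± 0.11 in HFD (adjusted p = 0.000164 and 4.02e-05). Acads, for short chains, rose by 0.41 ± 0.10 and 0.35 ± 0.10 (adjusted p = 0.00581 and 0.0213), and its HFD call was lost without HFD vehicle liver 2, HFD vehicle liver 3 or HFD PFOA liver 1, at adjusted p of up to 0.0888.

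Ratios of 2 genes within a library do not depend on library scaling. The Acads to Acadm ratio of counts ran from 0.34 to 0.434 in CD vehicle livers and from 0.192 to 0.22 in CD PFOA livers. In HFD it ran from 0.33 to 0.394 with vehicle and from 0.195 to 0.213 with PFOA. The groups did not overlap on either diet, and the mean log2 ratio differed with PFOA by -0.93 (CD) and -0.81 (HFD), each at an exact permutation p of 0.0286 (two-sided, 4 against 4). That is the smallest p this design can give, and adjusted over the 24 ratio tests it is 0.0623, so no ratio passed after adjustment. Without CD vehicle liver 4, 8 ratios of the comparisons that use CD vehicle livers passed at an adjusted exact permutation p of 0.049: all 6 ratios with PFOA in CD, and Acadl to Acadvl and Acsl4 to Acsl1 with HFD under vehicle. The unadjusted p of a ratio already at the smallest value did not fall there. Its adjusted p fell only because more of the 24 tests reached that smallest p, which makes such a ratio no stronger. The Acadl to Acadvl ratio changed by 0.58 log2 in CD (exact permutation p = 0.0571) and 0.47 in HFD (p = 0.0286). The Acsl4 to Acsl1 ratio changed by -0.74 and -1.15 log2 and the Cpt1b to Cpt1a ratio by 3.63 and 2.33, each at the smallest p. The Cpt1b ratio rests on the 0.5 added to each count: without it, and so without the 2 CD vehicle livers that had no Cpt1b count, it changed by 1.99 in CD (adjusted exact permutation p = 0.133) and 2.4996 in HFD (0.0686). Of the exonic bases of Acadvl, 42.9% overlap with Dvl2 on the other strand, a gene at 4.12 CPM in CD vehicle livers that did not pass the test, and the libraries do not record strand.

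Acadsb, the short and branched chain enzyme of isoleucine breakdown, went the other way. It was at 136, 166, 152 and 97.2 CPM in CD vehicle livers and 93.2, 93.9, 91.5 and 88.8 in CD PFOA livers. The corresponding HFD levels were 106, 113, 121 and 109.7 and 83.2, 77.5, 76.7 and 69.9. Every PFOA liver lay below every vehicle liver of its diet, and the change was -0.58 ± 0.12 log2 in CD and -0.55 ± 0.12 in HFD (edgeR adjusted p = 0.0011 and 0.00254). Acad9, best known as an assembly factor of respiratory complex I, had log2 fold changes of -0.11 ± 0.13 and -0.08 ± 0.13 with 95% intervals of -0.39 to 0.17 and -0.36 to 0.20. Acad11 rose by 0.90 ± 0.10 and 0.82 ± 0.10 log2, and Acad10 by 0.76 ± 0.11 and 0.68 ± 0.11 (edgeR adjusted p between 1.34e-06 and 0.000182). Acad10 shares 17.3% of its 50-base sequences with other genes, chiefly Acad12, which itself went from 6.502 to 22.3 CPM in CD, so the counts of these relatives are uncertain.

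Hadha and Hadhb encode the α and β subunits of the trifunctional protein, which carries out the later steps of the cycle on long chains. They sit head to head on chromosome 5, Hadha at 30118304 to 30155162 on the minus strand and Hadhb at 30155248 to 30184593 on the plus strand, with 85 bases between their starts in GENCODE M21. That stretch (sequence from RefSeq, GRCm38.p6, chr5:30155163-30155247, plus strand, 5′ to 3′) is shown because both genes start at its ends in that annotation and both rose. RefSeq places the start of Hadha further inside the gene, and the bases upstream of it begin at 30154981. Capitals mark GGGCGG, the GC box.
Hadha-Hadhb: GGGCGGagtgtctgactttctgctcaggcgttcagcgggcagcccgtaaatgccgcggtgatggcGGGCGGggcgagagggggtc
Hadha was at 485, 468, 531 and 509 CPM in CD vehicle livers and 1296, 1119, 1153 and 1269.9 in CD PFOA livers. In HFD it was at 518, 479.8, 494 and 486 and 1293, 1207, 1173 and 1157. Hadhb was at 24.6, 21.4, 21.5 and 26.8 and 76.5, 69.5, 75.3 and 76.1 in CD, and it ran from 23.4 to 28.3 with vehicle and from 70.7 to 78.0 with PFOA in HFD. Both genes had narrow vehicle groups of like level on both diets, and all 8 PFOA livers lay above them. Hadha rose by 1.28 ± 0.08 and 1.29 ± 0.08 log2 in CD and HFD (edgeR adjusted p = 6.82e-10 and 7.94e-10), and Hadhb by 1.66 ± 0.09 and 1.55 ± 0.09 (adjusted p = 1.13e-10 and 3.15e-10).

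The subunits were counted at different levels. Per kilobase of exon, Hadha stood at 57.0 ± 3.16 CPM and Hadhb at 3.57 ± 0.401 in CD vehicle livers (SD, n = 4). The Hadha to Hadhb ratio of counts ran from 18.9 to 24.7 in CD vehicle livers and 15.3 to 16.9 in CD PFOA livers, a change of -0.38 in mean log2 ratio, and it changed by -0.27 in HFD (exact permutation p = 0.0286 for each, 0.0623 adjusted). Hadhb shares 19.7% of its 50-base sequences with other genes, most of them with the processed pseudogene Gm13910. Gm13910 itself was counted at 6.25 CPM in CD vehicle livers and 16.0 in CD PFOA livers, so the level of Hadhb is uncertain.

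The other enzymes of the cycle rose less. Hadh, the 3-hydroxyacyl-CoA dehydrogenase for medium and short chains, rose from 373 to 462 to 529 to 628 CPM in CD and from 394 to 448 to 514 to 573 in HFD, by 0.45 ± 0.09 and 0.37 ± 0.09 log2 (edgeR adjusted p = 0.000643 and 0.00487). Acaa2, the matrix thiolase that releases acetyl-CoA, was the most abundant of the 35 genes per kilobase in every group and rose by 0.28 ± 0.09 log2 in CD and 0.46 ± 0.09 in HFD (adjusted p = 0.0309 and 0.00136). Its CD call was lost without the filter on low counts (adjusted p = 0.0584), in a fit of the 2 groups alone (0.061), without CD vehicle liver 4 (adjusted p = 0.0864), without CD PFOA liver 1 (0.0683), 3 (0.0628) or 4 (0.0604), and without CD vehicle livers 1 and 4 (0.15).

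Double bonds in a fatty acid need auxiliary enzymes, and both measured here rose by more than 2-fold. Decr1, the 2,4-dienoyl-CoA reductase, was at 188, 188, 194 and 191 CPM in CD vehicle livers and 584, 468, 503 and 530.2 in CD PFOA livers. The HFD levels were 223, 188, 183 and 200.5 and 591, 504, 489 and 502. The CD vehicle livers were almost identical and every PFOA liver lay above every vehicle liver. Decr1 rose by 1.45 ± 0.09 and 1.39 ± 0.09 log2 (edgeR adjusted p = 8.01e-10 and 2.08e-09). Eci1, the Δ3,Δ2-enoyl-CoA isomerase, rose by 1.10 ± 0.11 and 1.34 ± 0.11 log2 (adjusted p = 3.02e-07 and 2.57e-08), from 91.1 to 119 to 217.7 to 240.3 CPM in CD.

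Electrons from the dehydrogenases pass to electron transfer flavoprotein, a dimer of the Etfa and Etfb products, and then to its ubiquinone oxidoreductase, encoded by Etfdh. Etfdh rose from 312 to 369 to 537 to 587 CPM in CD and from 307 to 341 to 534 to 608 in HFD, by 0.71 ± 0.08 and 0.79 ± 0.08 log2 (edgeR adjusted p = 2.36e-06 and 9.11e-07). The 2 subunits differed. Etfa was at 223, 244, 258 and 219.3 CPM in CD vehicle livers and 245, 256, 248 and 245 in CD PFOA livers, which overlapped, and its log2 fold changes of 0.07 ± 0.09 in CD and 0.18 ± 0.09 in HFD did not pass (adjusted p = 0.588 and 0.166). Etfb was at 29.2, 48.3, 46.0 and 48.0 and 53.9, 66.5, 73.3 and 58.6, without overlap, and rose by 0.56 ± 0.14 and 0.61 ± 0.14 log2 (adjusted p = 0.00727 and 0.00515). The mean log2 ratio of Etfa to Etfb changed by -0.50 in CD and -0.43 in HFD (exact permutation p = 0.0286 for each, 0.0623 adjusted). Without CD vehicle liver 1, the CD change in this ratio was -0.35 (adjusted exact permutation p = 0.125). Of the exonic bases of Etfb, 58.2% are shared with other annotated genes, chiefly Gm45233 on the same strand, which had 0 counts in every library. How reads from the shared bases were counted is not known, so the level of Etfb and its ratio to Etfa are uncertain.

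Ketone body enzymes moved in different directions. Acat1, the mitochondrial acetoacetyl-CoA thiolase, was at 488, 507, 539 and 464 CPM in CD vehicle livers and 912, 912, 905 and 936 in CD PFOA livers. In HFD it was at 554, 541, 610.1 and 531 and 964, 1033, 814 and 947. The groups lay wide apart on both diets, and Acat1 rose by 0.88 ± 0.09 and 0.75 ± 0.09 log2 (edgeR adjusted p = 3.11e-07 and 3.25e-06). Bdh1, the β-hydroxybutyrate dehydrogenase that makes the main circulating ketone body, did not pass, at 0.18 ± 0.09 log2 (95% interval -0.01 to 0.36) in CD and 0.08 ± 0.09 (-0.10 to 0.27) in HFD, although it passed in CD with scaling by library totals (adjusted p = 0.0372). Bdh2, a cytosolic relative, was at 5.63, 9.34, 14.2 and 5.68 CPM in CD vehicle livers and 3.70, 5.18, 4.38 and 4.54 in CD PFOA livers. Vehicle liver 3 was the highest and the groups did not overlap, although vehicle livers 1 and 4 came close to the PFOA range. Bdh2 fell by 0.97 on the log2 scale in CD (SE 0.27, edgeR adjusted p = 0.0116), a call lost without vehicle liver 3 (-0.63 ± 0.24, adjusted p = 0.0753), and its HFD value was -0.49 ± 0.27 (adjusted p = 0.253).

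Oxct1 encodes the transferase that lets tissues burn ketone bodies and is known to be low in hepatocytes. Its levels were 2.92, 3.02, 4.45 and 5.25 CPM in CD vehicle livers, 11.4, 5.51, 5.56 and 5.89 in CD PFOA livers, 6.99, 5.92, 7.79 and 10.2 in HFD vehicle livers and 6.57, 8.06, 9.69 and 8.11 in HFD PFOA livers. The CD vehicle livers were the lowest of the 4 groups, and CD PFOA liver 1 was the highest of all 16. The log2 fold change with PFOA was 0.86 ± 0.26 in CD (edgeR adjusted p = 0.022) and 0.07 ± 0.26 in HFD (adjusted p = 0.912). The CD call was lost in a fit of the 2 groups alone (adjusted p = 0.0732) and without CD vehicle liver 1, CD vehicle liver 2 or CD PFOA liver 1 (adjusted p = 0.0656, 0.0657 and 0.129).

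Most of these genes changed with PFOA in the same direction on both diets. In all, 23 of the 35 genes rose on both diets, Acadsb fell on both, 7 passed on neither, and 34 had the same sign of change. The PFOA comparisons share no library, and across the 35 genes their log2 fold changes had a Pearson r of 0.927 and a Spearman rho of 0.932, a description over genes, which are not replicates. In the test of the difference itself, the diet by PFOA interaction, 0 of the 35 passed (edgeR quasi-likelihood test). Of all genes, that test called 0.207%, 0.0667% higher and 0.14% lower. DESeq2 called 1 of the 35 and 209 of all 14998 genes. In the edgeR test, 3 of the 35 had an unadjusted p under 0.05. The 3 were Acsl3 (0.72 ± 0.17 log2, adjusted p = 0.0967), Acsl5 (0.54 ± 0.21, 0.307) and Oxct1 (-0.79 ± 0.37, 0.437). Acsl3 passed without the filter on low counts (adjusted p = 0.0116), by DESeq2 (0.0209) and without CD vehicle liver 1 (0.0161) or 4 (0.049). For 27 genes the 95% interval of the interaction lay within a 1.5-fold difference either way, and for Acsl1, Acsl3, Acsl5, Acsm1, Acsm2, Cpt1b, Bdh2 and Oxct1 it was wider. Without CD vehicle livers 1 and 4, an alternative chosen after seeing the data, 3 genes passed: Acsl1 (0.60 ± 0.15, adjusted p = 0.0237), Acsl3 (0.67 ± 0.15, 0.0117) and Acsl5 (0.71 ± 0.13, 0.00296). Calls also rose among all genes in that fit, to 652 of 15968, against 31 of 14998 in the main fit.

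With the high-fat diet by itself, these genes passed at a share near that of all genes, 8.57% against 10.4%. Under vehicle, 1 of the 35 was higher in HFD and 2 were lower (edgeR quasi-likelihood test), where 10.4% of all genes were called, 5.19% higher and 5.21% lower. The median log2 fold change of the 35 was -0.01, against -0.03 over all genes. The groups did not overlap for 2 genes that were higher and 3 that were lower in HFD, against 7.25% and 7.21% of all genes. Cell markers also moved with the diet under vehicle: 5 of 8 hepatocyte markers were lower, and 3 of 8 macrophage and Kupffer cell markers, 2 of 6 stellate cell markers and 2 of 6 endothelial markers were higher, with 1 endothelial marker lower. Also higher were 1 of 5 cholangiocyte markers and 1 of the 2 adipocyte markers tested. Of 5 B and plasma cell markers, 1 was lower. Macrophage markers summed to 179 to 323 CPM in CD livers against 328 to 481 in HFD livers, and stellate markers to 221.9 to 391 against 449 to 509. Cholangiocyte markers summed to 45.9 to 96.7 CPM against 124 to 249. Endothelial markers overlapped, at 193 to 224.6 against 216 to 261. The part of all these markers in the diet result was not tested. Acsl3 and Acsl5 fell, by 0.57 and 0.64 on the log2 scale (SE 0.12 and 0.15, adjusted p = 0.00609 and 0.00876), and Oxct1 rose by 0.98 ± 0.26 (adjusted p = 0.0218). The calls of Acsl3 and Acsl5 were lost with scaling by library totals (adjusted p = 0.0898 and 0.0505), and that of Acsl5 in a fit of the 2 groups alone (0.076). The Oxct1 call was lost without CD vehicle liver 1, CD vehicle liver 2 or HFD vehicle liver 4 (adjusted p = 0.0553, 0.0677 and 0.0943). For Acsl3 and Acsl5 the diet comparison and the PFOA comparison in HFD share the HFD vehicle livers, and for Oxct1 the diet comparison and the PFOA comparison in CD share the CD vehicle livers. Acsl1 differed in HFD vehicle livers by -0.40 ± 0.13 log2 without passing (adjusted p = 0.0619), but passed without the filter on low counts (0.0256) and by DESeq2 (0.0344). Without CD vehicle livers 1 and 4, 10 genes passed, Oxct1 and Cpt1a higher and 8 lower. That fit called 2363 of all 15968 genes tested, 54.3% of them higher, against 1561 of 14998 in the main fit. The 8 were Acsl3, Acsl5, Acsl1 (-0.65 ± 0.11), Acadsb (-0.50 ± 0.09), Bdh2 (-1.10 ± 0.25), Etfb (-0.45 ± 0.13), Acsm1 (-0.40 ± 0.14) and Acaa2 (-0.34 ± 0.10). Scaling by library totals also called 10, all of them higher, with the median of all genes shifted to 0.19 log2 and 87.7% of all calls higher, against 49.9% with TMM scaling. With that scaling, 2340 of 14998 genes were called.

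Under PFOA, the diets were close. The HFD PFOA and CD PFOA livers differed at adjusted p under 0.05 for 0 of the 35 genes (edgeR quasi-likelihood test). In that test 1 had an unadjusted p under 0.05, and 0.06% of all genes were called, 0.0467% higher and 0.0133% lower. DESeq2 called 0 of the 35 and 179 of all 14998 genes. For 31 genes the 95% interval of the diet difference lay within 1.5-fold either way, and for Acsm2, Cpt1b, Bdh2 and Oxct1 it was wider. Acadsb was the 1 gene whose groups did not overlap, at 88.8 to 93.9 CPM in CD PFOA livers and 69.9 to 83.2 in HFD PFOA livers (-0.26 ± 0.12 log2, adjusted p = 0.431), where 7.68% of all genes did not overlap, 4.15% higher and 3.53% lower.

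**Figure D3:**
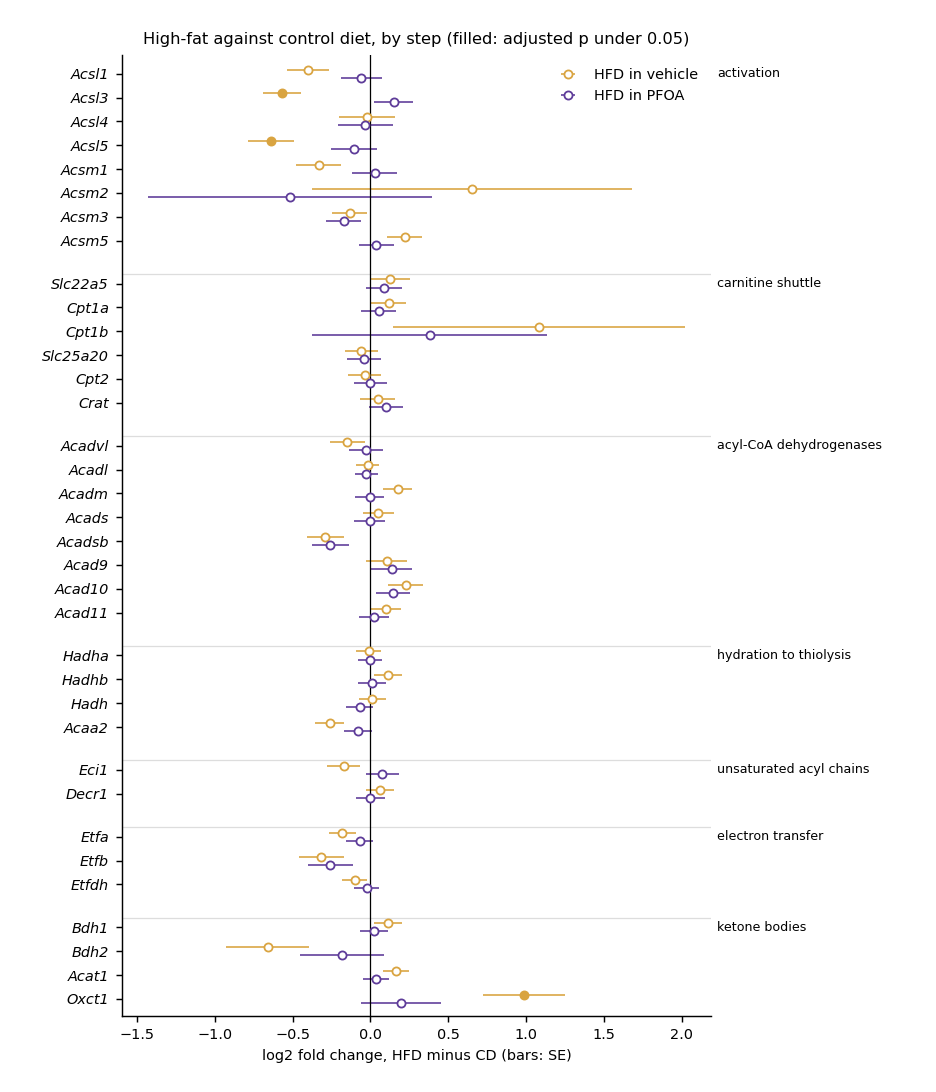
Log2 fold change of each gene in HFD against CD (horizontal axis, log2; bars, SE) under vehicle (gold) and under PFOA (purple), ordered by step; filled points passed adjusted p under 0.05. The 3 filled points are Acsl3 (-0.57), Acsl5 (-0.64) and Oxct1 (0.98), all under vehicle.

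Levels can be ordered across genes only per kilobase of exon. In CD vehicle livers the order began with Acaa2 (400.2 ± 35.9 CPM per kilobase), Acsl5 (149 ± 39.2), Acat1 (133 ± 8.50), Etfa (129 ± 10.03) and Acadl (124 ± 5.11), and the last 4 lie within each other's spread. Acsl1 was the seventh at 103 ± 22.7. In CD PFOA livers Acaa2 (487 ± 16.2) was still ahead, and Acsl1 (330.0 ± 15.2), Acadl (297 ± 9.96), Acat1 (244 ± 3.56) and Acadm (191 ± 20.3) came next, in the same order as in HFD PFOA livers. Acad9, Oxct1, Bdh2, Cpt1b and Acsm2 were the lowest in every group, from 0.309 to 2.84 CPM per kilobase in CD PFOA livers.

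Related lists set the scale. Of 16 other genes of the mitochondrial pathway, 6 rose and 1 fell with PFOA in CD (median 0.14 log2), and 8 rose and 0 fell in HFD (median 0.24). The shares called, 43.8% and 50%, stand against 24.4% and 16.5% of all genes. Among these 16, the mitochondrial thioesterase Acot2 rose by 5.19 ± 0.21 log2 in CD and 4.92 ± 0.21 in HFD, the medium-chain synthetase Acsf2 by 1.48 ± 0.09 and 1.20 ± 0.09, and Mlycd, which breaks down the CPT1 inhibitor malonyl-CoA, by 0.63 ± 0.10 and 0.79 ± 0.10. Of 14 genes of peroxisomal β-oxidation, 12 rose and 2 fell in CD (median 1.24) and 11 rose and 1 fell in HFD (median 1.35). There Ehhadh, the bifunctional enzyme, rose by 4.63 ± 0.16 and 4.53 ± 0.16, and the isomerase Eci2 was 2.82-fold and 2.65-fold higher. Ech1, another isomerase, rose by 1.27 ± 0.09 and 1.29 ± 0.09. Abcd3, a peroxisomal fatty acid transporter, rose by 1.41 ± 0.11 and 1.76 ± 0.11.

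Genes of general mitochondrial content passed at a share near that of all genes. Of 16 such genes, 2 rose and 2 fell in CD (median 0.04) and 2 rose and 0 fell in HFD (median 0.12). That is 25% and 12.5% of the list called, against 24.4% and 16.5% of all genes. The risers were the chaperones Hspd1 (0.88 ± 0.08 and 1.02 ± 0.08 log2) and Hspa9 (0.67 ± 0.08 and 0.64 ± 0.08). In CD, Sdha, a subunit of complex II, fell by 0.36 and the transcription factor Nrf1 fell by 0.68, each on the log2 scale (edgeR adjusted p = 0.00336 and 0.00557).

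Of 16 regulators of the pathway, 4 rose and 5 fell in CD and 4 rose and 5 fell in HFD, a share of 56.2% and 56.2% called against 24.4% and 16.5% of all genes. Ppara, the receptor itself, was at 69.1, 65.6, 62.0 and 68.2 CPM in CD vehicle livers, 122, 124, 124 and 111 in CD PFOA livers, 100.4, 132, 114 and 99.8 in HFD vehicle livers and 141, 118, 123 and 138 in HFD PFOA livers. The CD vehicle livers stood below all others, so that Ppara rose with PFOA in CD (0.86 ± 0.10, edgeR adjusted p = 1.81e-06) and with HFD under vehicle (0.75 ± 0.10, 0.000125), 2 comparisons that share those livers, and had 0.22 ± 0.10 with PFOA in HFD (0.133). Creb3l3, a liver transcription factor of fasting, rose by 0.68 ± 0.10 and 0.75 ± 0.10. Ppard, a relative of the receptor, fell by 1.51 in CD and by 0.56 in HFD on the log2 scale (adjusted p = 3.49e-07 and 0.0114). Lpin1, a phosphatidate phosphatase and coactivator, fell by 2.31 and 3.10 (adjusted p = 2.62e-05 and 1.67e-06). Ppargc1a, which encodes the coactivator PGC-1α and was chosen after its values were seen, fell by 1.14 and 0.76 (adjusted p = 0.000717 and 0.0201).

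Of 8 genes of ketone and monocarboxylate transport, 3 rose and 3 fell in CD and 4 rose and 3 fell in HFD, or 75% and 87.5% of the list (all genes, 24.4% and 16.5%). Slc16a1 (MCT1), which moves ketone bodies and lactate across the membrane, rose by 0.75 ± 0.09 and 0.96 ± 0.09 log2 (edgeR adjusted p = 3.83e-06 and 2.2e-07). Slc16a6, a monocarboxylate transporter linked to ketone body export, fell by 1.33 in CD (adjusted p = 0.00051) and had -0.50 ± 0.24 in HFD (0.191), whereas Slc16a11 had 0.49 ± 0.19 in CD (0.0601) and rose by 1.27 ± 0.19 in HFD (7.2e-05). Their interactions did not pass (adjusted p = 0.358 and 0.243).

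**Figure D4:**
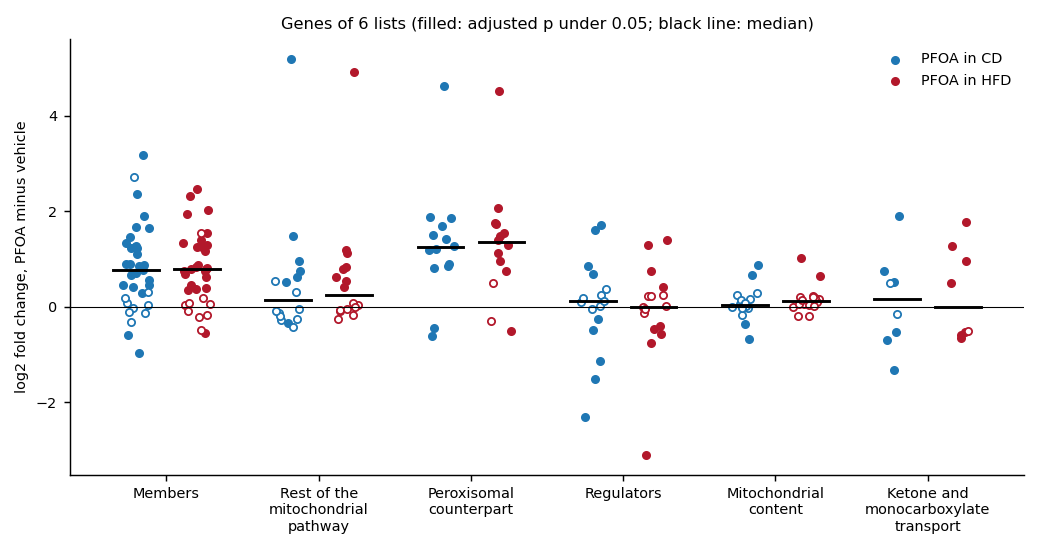
Log2 fold change with PFOA against vehicle (vertical axis, log2) of the 35 genes and of 5 related lists, on the control diet (blue) and the high-fat diet (red); filled points passed adjusted p under 0.05 and black lines are medians. The medians of the 35 genes are 0.76 and 0.79 and those of the peroxisomal genes 1.24 and 1.35, whereas those of mitochondrial content are 0.04 and 0.12.

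Because most of these genes moved together, their promoters were searched for letters of the motif that PPARα is known to bind with its partner RXR, a direct repeat of AGGTCA with 1 base of any kind between its copies (DR1). RefSeq promoters of GRCm38.p6, from 250 bases before to 50 after each start, were matched for 29 of the 35 genes by symbol, with 32 promoters in all, and both strands were read. No member promoter held the motif with at most 1 mismatch, against 0.554% of all 32851 promoters. At so low a share of all promoters, 32 promoters are too few to show a lack of the motif. With 2 mismatches it was found in Slc25a20, which rose, and in Etfa, which did not pass, that is in 6.25% of the 32 member promoters against 3.86% of all. The single repeat unit AGGTCA was in 12.5% of member promoters against 16.3% of all, those of Acadm, Acadvl, Acsm1 and Cpt1a. The GC box GGGCGG was in 56.2% against 35.7%, and GCGCA followed, after 1 base of any kind, by GCGC, the letters bound by the factor NRF1, in 12.5% against 4.60%. Stretches of 3 genes are shown so that the matches can be read, with the matched letters in capitals, 5′ to 3′ on the strand of the gene: Etfa at chr9:55512278-55512350 (minus strand), Slc25a20 at chr9:108662142-108662154 (plus strand) and Acadvl at chr11:70015480-70015545 (minus strand).
Etfa: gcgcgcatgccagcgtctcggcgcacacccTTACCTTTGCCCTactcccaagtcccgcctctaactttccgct
Slc25a20: AGGTGAAAGGTCG
Acadvl: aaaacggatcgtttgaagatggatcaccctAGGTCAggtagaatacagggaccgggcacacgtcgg
In Etfa the letters match the motif on the opposite strand and lie 77 to 65 bases before the RefSeq start, in Slc25a20 they lie 6 to 18 bases after it, and in Acadvl the single unit lies 87 to 82 bases before it. A match describes letters only, and the window leaves out introns and more distant sequence.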

How the data were processed

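Total RNA of flash-frozen mouse liver was extracted with a Qiagen kit and made into non-stranded libraries by BGI, per the labels' protocols. STAR 2.5.2b and Subread 1.6.0 (featureCounts) are named in the submitters' processing notes, beside Trimmomatic 0.33, bcl2fastq 2.20.0.422 and the build GRCm38. The deposited table holds raw whole-number counts per gene as the authors made it. Which annotation release was used, and how reads that fit 2 genes were treated, is, as far as labels and file headers go, not given in the sources used here.

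Low-count genes were dropped with filterByExpr in edgeR 4.0.16 (R 4.3.3), which left 14998, and libraries were scaled by TMM. All 16 libraries, each from a separate mouse per the design of the series, were fitted together by quasi-likelihood with group means (12 residual degrees of freedom, common biological coefficient of variation 0.242). Benjamini-Hochberg adjustment covered all genes tested. Dividing the absolute log2 fold change by the square root of F gave its SE. Library pairs within a group differed by more than sampling noise (chi-square per df 8.13 to 138). Ratios of 2 genes were taken with 0.5 added to each count and compared by a two-sided exact permutation test. Alternatives were other scalings and filters, DESeq2 1.42.0, limma voom, fits of 2 groups and fits without 1 library. Gene positions and exon lengths are from GENCODE M21, whose identifiers carry the version of the table for 30 of the 35 genes.

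The members and lists were chosen with earlier results of these data known. Beyond the 35 genes, the text names up to 4 genes of each related list with the smallest p for PFOA on either diet, genes that overlap with or resemble a member, and others only where it says that they were chosen after their values were seen. Some genes of the related lists are not reported here.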

Additional observations from a re-analysis of the deposited data

Results flagged for a closer look

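In 13 of the 140 sets of 4 livers (35 genes in 4 groups), 1 liver lay far from the other 3 by Dixon's test at the 95% level. Chance alone gives about 1 in 20 such sets. CD vehicle liver 1 was low for Acsl5 (442 CPM, others 784 to 843) and Etfb (29.2 CPM, others 46.0 to 48.3) and high for Cpt1a (515 CPM, others 325 to 351). HFD PFOA liver 1 was high for Acads (178 CPM, others 144 to 147), Acaa2 (831 CPM, others 641 to 671), Eci1 (284 CPM, others 223.9 to 226.5) and Decr1 (591 CPM, others 489 to 504) and low for Cpt1a (507 CPM, others 557 to 563). CD PFOA liver 1 was high for Cpt2 (418 CPM, others 355 to 362), Acad10 (54.0 CPM, others 46.8 to 47.3) and Oxct1 (11.4 CPM, others 5.51 to 5.89). HFD vehicle liver 1 was high for Slc25a20 (87.1 CPM, others 77.4 to 78.8), and HFD PFOA liver 3 was high for Bdh2 (5.25 CPM, others 3.36 to 3.64).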

How the results depend on the processing

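No paired analysis was run, because the livers came from separate mice and the labels name no pairing. The labels give no replicate numbers, so livers are numbered here by the order of the samples within each group. With PFOA, the number of the 35 genes that passed stayed at 24 to 26 in CD and 24 to 25 in HFD when 1 library was left out, and within 1.5 times of 26 under every other alternative run. Without CD vehicle livers 1 and 4, 25 passed in CD, 22 higher and 3 lower, where 3548 of 15968 genes were called. For HFD under vehicle the count of 3 became 10 with scaling by library totals, 5 with DESeq2 and 10 without CD vehicle livers 1 and 4 (chosen after seeing the data), and ran from 2 to 8 without 1 library, with 8 when CD vehicle liver 4 was left out and 5 when liver 1 was. Of all genes, the first 3 of these fits called 2340 of 14998, 2036 of 14998 and 2363 of 15968, against 1561 of 14998 in the main fit. Without liver 4 it was 2272 of 15365, and without liver 1 it was 1546 of 15397. For the interaction the count of 0 became 1 without the filter on low counts, 1 with DESeq2 and 3 without CD vehicle livers 1 and 4, and ran from 0 to 2 without 1 library, with 2 (Acsl3 and Acsl5) when CD vehicle liver 1 was left out. Of all genes, these fits called 290 of 27956, 209 of 14998, 652 of 15968 and, without liver 1, 106 of 15397. The main fit called 31 of 14998 for the interaction. For HFD under PFOA it was 0 whichever 1 library was left out. Without 1 library, the change in log2 ratio with PFOA in CD ran from 2.89 to 4.60 (Cpt1b to Cpt1a), -0.44 to -0.31 (Hadha to Hadhb), -0.60 to -0.35 (Etfa to Etfb), 0.50 to 0.72 (Acadl to Acadvl), -0.87 to -0.44 (Acsl4 to Acsl1) and -0.99 to -0.88 (Acads to Acadm), and with HFD under vehicle from 0.0344 to 0.255 (Acadl to Acadvl) and 0.30 to 0.73 (Acsl4 to Acsl1). Without CD vehicle liver 4, all 6 ratios with PFOA in CD and those last 2 with HFD under vehicle passed after adjustment, because more tests reached the smallest p. The cause of the shifts in these counts and ratios was not tested. Over the single genes, no value that passed changed sign under any alternative run. Counts of Cpt1b and Acsm2, under 250 per group, and of Bdh2 and Oxct1, under 1000, limit what can be said of them.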
